A study of Homo sapiens with 8 samples.

Results

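The 48 genes described here form a list of interferon-stimulated genes (ISGs) given by name, without a threshold on any measured value but with earlier results of these data known, among 20037 protein-coding genes on chromosomes 1 to 22, X and Y. All 48 were found by symbol in a RefSeq gene table of GRCh38.p14. Accessible chromatin had been profiled by ATAC-seq, in which a transposase cuts open DNA and adds sequencing adapters to it, in H1975 and HCC44, 2 human lung cancer cell lines. Every group is labelled with a WT genotype and was held for 96 h in either DMSO, the solvent, or ACBI1, with 2 replicates in each of the 4 groups and 8 samples in all. ACBI1 is a degrader that removes SMARCA2 and SMARCA4, which are the alternative ATPase subunits of SWI/SNF (BAF) chromatin remodellers, and the subunit PBRM1. Its dose is given as 1 mM in the labels and is repeated here only as labelled. Nothing in the labels says whether replicates were separate cultures, so the spread between them may be technical. The labels name no interferon treatment, and the files used here hold no RNA measurement.

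Type I and type III interferons bind receptors at the cell surface and act through the JAK kinases to activate the transcription factor complex ISGF3. ISGF3 binds the interferon-stimulated response element (ISRE) of ISG promoters, whereas type II interferon acts mainly through gamma-activated sites (GAS). In cancer cells the pathway can also run at a low level without added interferon, and SWI/SNF complexes are known to keep many enhancers open.

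The ISG promoters were rich in the element through which interferon acts. RefSeq promoter sequences of GRCh38.p14, from 250 bases before to 50 bases after the start, were available for 40 of the 48 genes. MX2, OAS2, OASL, IFITM2, USP18, TRIM22, GBP2 and GBP5 had no entry there. The ISRE core, GAAA followed by any 2 bases and a second GAAA, searched on both strands, occurred in 28 of the 40 promoters and in 3.17% of the 15843 promoters of protein-coding genes. The GAS letters TTCNNNGAA, which read the same on both strands, occurred in 11 (27.5%) against 6.97%, and the AP-1 letters TGACTCA on either strand in 3 of the 40 against 3.66%. GAS and ISRE matches can overlap, as in EPSTI1. A match describes the letters and is not evidence of binding. The stretches below are the 150 bases before the start, written 5′ to 3′ along the gene, with ISRE matches in capitals. HERC5, DDX60L and ISG15 are shown because a peak was listed at their promoters in all 8 samples, and SAMD9, GBP1 and OAS1 because theirs was missing from some or all ACBI1 samples. They lie at chr4:88456969-88457118, plus strand, at chr4:168480493-168480642, minus strand, at chr1:1013347-1013496, plus strand, at chr7:93117980-93118129, minus strand, at chr1:89065209-89065358, minus strand, and at chr12:112906812-112906961, plus strand.
HERC5: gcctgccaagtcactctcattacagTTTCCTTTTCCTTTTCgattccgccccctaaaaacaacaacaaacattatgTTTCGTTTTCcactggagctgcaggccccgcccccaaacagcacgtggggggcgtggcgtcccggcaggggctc
DDX60L: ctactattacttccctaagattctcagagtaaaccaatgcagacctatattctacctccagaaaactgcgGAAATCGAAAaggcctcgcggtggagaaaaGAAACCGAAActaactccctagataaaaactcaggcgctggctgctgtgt
ISG15: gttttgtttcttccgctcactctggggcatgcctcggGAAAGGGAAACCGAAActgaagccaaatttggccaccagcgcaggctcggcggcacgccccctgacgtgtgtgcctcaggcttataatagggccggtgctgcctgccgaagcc
SAMD9: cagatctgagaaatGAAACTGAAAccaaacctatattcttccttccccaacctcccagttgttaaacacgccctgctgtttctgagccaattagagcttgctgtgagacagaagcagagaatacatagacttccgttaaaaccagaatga
GBP1: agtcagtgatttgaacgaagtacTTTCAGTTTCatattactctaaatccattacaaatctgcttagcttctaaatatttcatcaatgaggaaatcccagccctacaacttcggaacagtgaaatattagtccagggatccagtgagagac
OAS1: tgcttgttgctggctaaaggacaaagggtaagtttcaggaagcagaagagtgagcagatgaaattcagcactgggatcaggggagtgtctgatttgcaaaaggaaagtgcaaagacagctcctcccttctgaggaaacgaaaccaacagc
HERC5 held 3 ISRE matches, on the opposite strand, DDX60L and ISG15 held 2 each, and SAMD9 and GBP1 held 1 each, that of GBP1 on the opposite strand. OAS1 held none within the 300 bases of its entry, which says only that these letters are not in that window, and it held 1 GAS match at positions -168 to -160, counted back from the start. These promoters are examples, and their numbers of matches do not stand for the list. Of ISGs with a promoter entry and a peak at a gene end in both H1975 DMSO samples, 23 also had one in both ACBI1 samples. Of these promoters, 16 held an ISRE match. Of the 9 that did not, 7 held one.

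Each sample came with its own list of peaks, so a gene is described here by whether, and how often, a peak was listed near it. A peak was counted at a gene boundary when it overlapped the window of 1 kb on either side of either end of the gene, and as elsewhere when it lay in the rest of the gene body or within 50 kb of the gene. A missing peak is not a measurement of closed chromatin, because listing also depends on depth, which is unknown, and on background signal. In H1975, the DMSO lists held 43525 and 41027 peaks and the ACBI1 lists 27682 and 22133. In HCC44, the DMSO lists held 50347 and 49945 and the ACBI1 lists 26313 and 24862. Of 5 epithelial markers, 4 to 5 had a boundary peak in each sample, both mesenchymal markers had one in all 8 samples, and 0 to 2 of the 2 lung lineage markers had one. Of the blood and immune markers, PTPRC and LYZ had none in any sample, and CD3E had one in both H1975 DMSO samples, 1 HCC44 DMSO sample and no ACBI1 sample.

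Around the ISGs, listed peaks away from the genes' own ends became fewer in both lines, while peaks at the ISG ends were mostly kept. The windows of the 48 genes joined into 32 stretches of genome covering 5.2 Mb, since 27 members lay in 11 stretches with another member, so the members are not independent of each other. Counting each peak once, those elsewhere around the ISGs numbered 134 and 115 in the H1975 DMSO samples and 77 and 64 in the ACBI1 samples. This was a change of -0.82 on the log2 scale (SD between replicates 0.17, n = 2 per group), and the groups did not overlap. In HCC44 there were 150 and 156 (DMSO) against 79 and 71 (ACBI1), a log2 change of -1.03 (SD 0.082, n = 2 per group), again with no overlap. The lists as a whole, which include peaks at gene ends, changed by -0.77 in H1975 and -0.97 in HCC44. All peaks in the ISG windows, ends included, changed by -0.71 in H1975 and -0.79 in HCC44. With all lists at equal length the change around the ISGs was 0.10 in H1975 and -0.09 in HCC44. Peaks at the ISG boundaries went from 38 and 37 to 32 and 26 in H1975 and from 40 and 40 to 36 and 38 in HCC44.

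Most of the loss lay outside gene boundaries. Peaks in the ISG stretches that touched no boundary of any protein-coding gene fell from 106 and 89 to 51 and 39 in H1975 (log2 change -1.12, SD 0.23, n = 2 per group) and from 118 and 126 to 50 and 43 in HCC44 (log2 change -1.39, SD 0.12, n = 2 per group). Peaks at the boundaries of neighbouring genes in the same stretches numbered 28 and 26 against 26 and 25 in H1975, and 32 and 30 against 29 and 28 in HCC44. With 2 samples a group, an exact two-sided permutation test cannot go below 0.333 within a line or 0.0556 over both lines, so sizes are set beside the spread between replicates.

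At the gene ends, 25 of the 48 ISGs had a boundary peak in all 8 samples. A boundary peak is called lost below when both DMSO samples of a line had it and the 2 ACBI1 samples had none. Any peak at either end counted as kept, so BST2 counts as kept in HCC44. There its start peak was lost, and the ACBI1 samples listed another peak towards its 3′ end. In H1975, 37 ISGs had one in both DMSO samples, of which 26 (70.3%) kept it in both ACBI1 samples, 4 kept it in 1 of them and 7 lost it. Over all protein-coding genes the share that lost it was 2.52% (300 of 11907), against 18.9% of these ISGs. The share without it in both ACBI1 samples was 29.7%, against 4.76% of all genes. In HCC44, 40 ISGs had a boundary peak in both DMSO samples, of which 35 (87.5%) kept it in both ACBI1 samples, 3 kept it in 1 and 2 lost it. The last is 5.00% of the 40, beside 5.53% of all genes, and the share without it in both ACBI1 samples was 12.5%, beside 8.11%. The share of ISGs that lost the peak was above the background in H1975 and near it in HCC44, and this difference between the lines was not tested. The reverse, a boundary peak in both ACBI1 samples and in neither DMSO sample, occurred at 0 ISGs in either line, beside 0.691% of genes in H1975 and 0.939% in HCC44. When all 4 lists of a line were shortened to the length of the shortest list of the series, by -log10 q, 0 of the 21 ISGs then counted in H1975 had lost a boundary peak, beside 0.771% of genes, and 2 of the 24 in HCC44, beside 1.57%. With only peaks of -log10 q of at least 20 counted, 5 of 31 ISGs lost it in H1975, beside 2.85% of genes, and 9 of 36 in HCC44, beside 7.13%, so the order of the lines turned round. Without the first H1975 ACBI1 sample the H1975 count was 11 of 37, beside 4.65% of genes. Without the second HCC44 ACBI1 sample the HCC44 count was 4 of 40, beside 6.63%. Such counts can only stay or rise when a sample is left out.

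**Figure D1:**
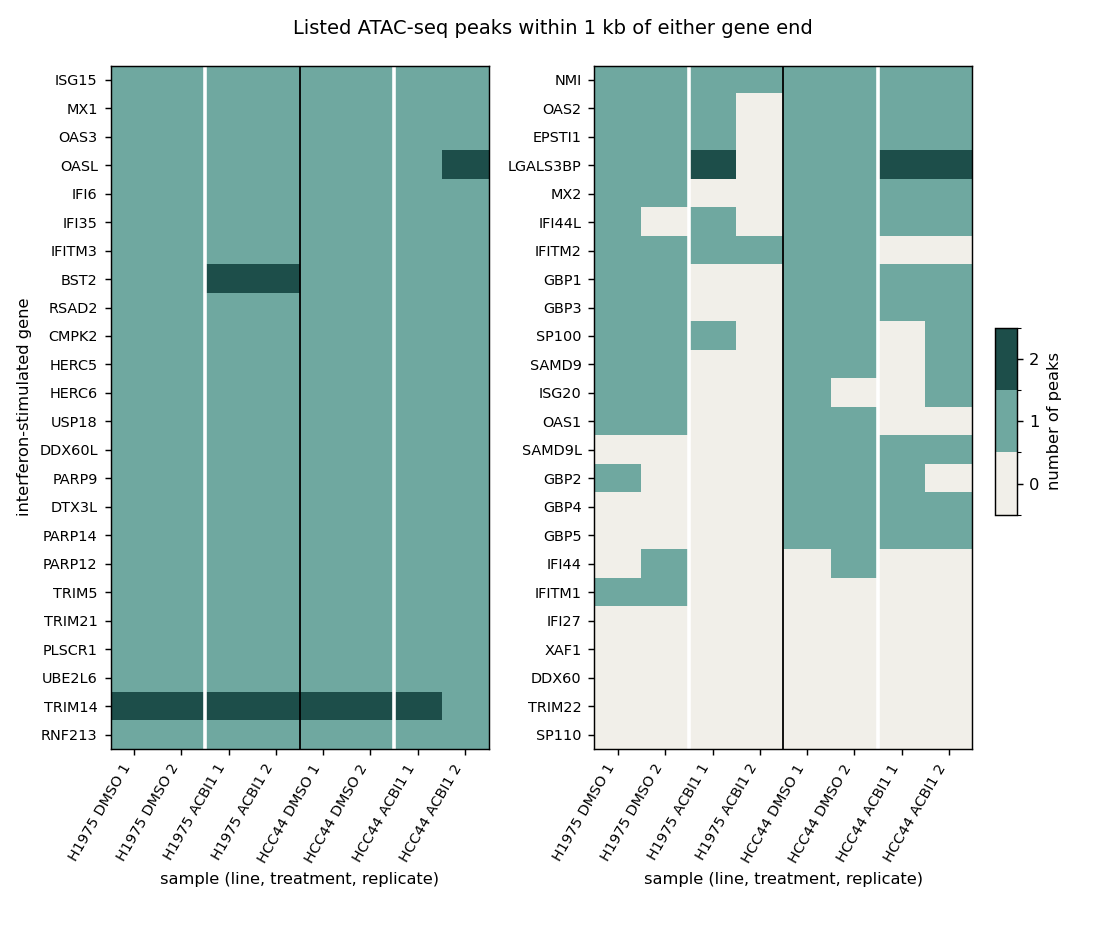
Listed ATAC-seq peaks within 1 kb of either gene end (colour, number of peaks) for each ISG (vertical axis) in each of the 8 samples (horizontal axis); black lines divide the cell lines and white lines DMSO from ACBI1. The left block and NMI hold the 25 genes with a peak in all 8 samples, and the cells that turn empty with ACBI1 are mostly in H1975.

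Among the direct antiviral effectors, the genes of the OAS family, which includes enzymes that make oligoadenylates that activate RNase L, behaved differently from one another. OAS1 had a peak over its start, at chr12:112906886-112907210 in the first H1975 DMSO sample, in all 4 DMSO samples and in none of the 4 ACBI1 samples. The authors' -log10 q of this peak was 24.9 and 20.9 in H1975 DMSO and 15.2 and 15.6 in HCC44 DMSO. It was the only ISG that lost its boundary peak completely in both lines. OAS2 kept a peak in 1 of 2 H1975 ACBI1 samples and in both HCC44 ones, and OAS3 and OASL kept theirs in all samples. MX2, a dynamin-like GTPase, had a boundary peak with -log10 q of 21.4 and 14.4 in H1975 DMSO and none with ACBI1, whereas in HCC44 all 4 samples had one (32.2 and 38.2 for DMSO, 12.2 and 15 for ACBI1). Its neighbour MX1 had a boundary peak in every sample.

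The IFITM genes, whose membrane proteins hinder virus entry, lie side by side on chromosome 11 and differed between the lines. IFITM1 had a boundary peak only in H1975 DMSO (18.9 and 17.4 in -log10 q). IFITM2 showed the converse loss: its -log10 q was 18.8 and 16.5 (DMSO) against 13.8 and 11.7 (ACBI1) in H1975, and 42.6 and 34.7 in HCC44 DMSO against no peak with ACBI1. IFITM3 kept a boundary peak in all 8 samples. BST2, the tetherin that holds budding virions, kept its start peak in H1975 and lost it in both HCC44 ACBI1 samples. All 4 ACBI1 samples, and no DMSO sample, listed another BST2 peak towards the 3′ end of the gene, within chr19:17403184-17404240. The BST2 start peak also touched a boundary of MVB12A, so it cannot be assigned to 1 gene, as was the case for the pairs CMPK2 and RSAD2, and PARP9 and DTX3L. RSAD2, known as viperin, and CMPK2, a mitochondrial nucleotide kinase gene, shared a peak in all 8 samples.

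The guanylate-binding proteins, large GTPases that act on intracellular pathogens, formed a cluster on chromosome 1 with a baseline that differed between the lines. GBP4 and GBP5 had boundary peaks in all 4 HCC44 samples and in no H1975 sample. GBP1 and GBP3 lost theirs in H1975, where DMSO samples had -log10 q of 21.5 and 12.5 for GBP1 and 17.1 and 15.1 for GBP3. In HCC44 both stayed listed, with lower values: GBP1 had 33.8 and 37.3 (DMSO) against 17.5 and 16.5 (ACBI1), and GBP3 had 51.6 and 58.3 against 15.7 and 15.3. GBP2 had a peak in both HCC44 DMSO samples and 1 of 2 ACBI1 samples. SAMD9, a virus restriction factor on chromosome 7, lost its start peak in H1975 (40 and 36 in the DMSO samples) and had it in both HCC44 DMSO samples (21.6 and 25.4) and 1 ACBI1 sample (20.8). Its paralogue SAMD9L had a boundary peak in all 4 HCC44 samples and in no H1975 sample. These -log10 q values depend on each library and only describe peaks within a list.

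The remaining boundary losses were few. ISG20, an RNA exonuclease gene, had a peak at the end given by the gene table in both H1975 DMSO samples (31.8 and 31.4) that was lost. Its promoter entry starts 3384 bp further into the gene, where all 8 samples listed a peak, so the ISG20 loss concerns the region of an upstream end and not that promoter. The same holds in part for DDX60, a helicase gene with no boundary peak in any sample, whose promoter entry starts 7227 bp into the gene and had a peak in all 8 samples. For 36 of the 40 genes with an entry both tables gave the same start. EPSTI1 and LGALS3BP kept a boundary peak in 1 H1975 ACBI1 sample and in both HCC44 ones, and SP100, a nuclear body protein gene, in 1 ACBI1 sample of each line. XAF1, SP110 and TRIM22 had no boundary peak in any sample. IFI27 was not analysed further, since the lists used here held no peak in its whole surrounding stretch.

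Counting the gene start alone gave a like picture for the genes with a known strand. In H1975, 32 ISGs had a start peak in both DMSO samples and 6 of them lost it, with 1.87% of all genes as background. These were ISG20, OAS1, IFITM1, SAMD9, GBP1 and GBP3. The share not kept in both was 31.2%, beside 3.81%. In HCC44 there were 33, of which OAS1 and BST2 lost it, beside 4.31%, and 12.1% did not keep it in both, beside 6.61%.

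ISGs that did not keep their boundary peak in both H1975 ACBI1 samples mostly had weaker DMSO peaks and fewer CpG dinucleotides in their promoters. Among ISGs whose DMSO boundary peak ranked in the lowest 40% of its lists by -log10 q, 6 of 11 lost it in H1975, as did 202 of the 1345 genes in that range. In HCC44 this was 1 of 8 ISGs, beside 418 of 1634 genes. The promoter CpG content, as observed over expected, had a median of 0.37 over the 40 ISGs and of 0.76 over all promoters. Among ISGs with a promoter entry, it was 0.70 for the 23 that kept the peak in both H1975 ACBI1 samples and 0.27 for the 9 that did not. At a CpG ratio of at most 0.3, 4 of 8 ISGs lost the peak in H1975, beside 16.3% of 569 genes, and 1 of 10 in HCC44, beside 27.7% of 722. Above 0.6 it was 0 of 16 in each line, beside 1.06% and 2.25%. The ISRE letters were in 16 of the 23 promoters of ISGs that kept the peak in H1975 and in 7 of the 9 of those that did not. ISG20 is among these 9 and these 7, though its promoter entry lies 3384 bp into the gene and had a peak in all 8 samples. The part of peak strength and CpG content in the result was not tested beyond these ranges.

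Of 35 ISGs with a boundary peak in all 4 DMSO samples, 25 (71.4%) had it in all 4 ACBI1 samples, as did 93.9% of 11244 genes. A further 6 (17.1%, beside 1.55% of genes) kept it in both HCC44 ACBI1 samples but not in both of H1975, and 1 (2.86%, beside 2.39%) did the converse. The last was IFITM2. BST2 counts among the 25, though its start peak was lost in HCC44.

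Away from each gene's own ends the loss was widespread. In H1975, 42 ISGs had a peak elsewhere in both DMSO samples, and 29 of them (69.0%) had fewer with ACBI1, each ACBI1 sample lying under each DMSO sample, where 52.6% of all such genes did. In HCC44 this was 34 of 44 (77.3%), where 65.3% of genes did. Genes matched on the number of DMSO peaks had fewer in 51.1% of cases for H1975 and 65.8% for HCC44, averaged over the same ISGs. The reverse, more peaks in both ACBI1 samples, was seen for USP18 in H1975 (background 1.38%) and for 0 ISGs in HCC44 (background 1.84%). In both lines together, 25 of 41 ISGs (61.0%) had fewer, where 42.8% of genes did. For these same 25 ISGs the exact two-sided permutation test, with treatments permuted within each line, gave 0.0556, the smallest p that the 36 arrangements allow. Groups that do not overlap in either line must give this p, so it adds nothing to the count. With all lists at equal length, 8 of 31 ISGs in H1975 had fewer, beside 17.0% of genes, and 8 of 37 in HCC44, beside 20.3%, so the HCC44 share was near the background.

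**Figure D2:**
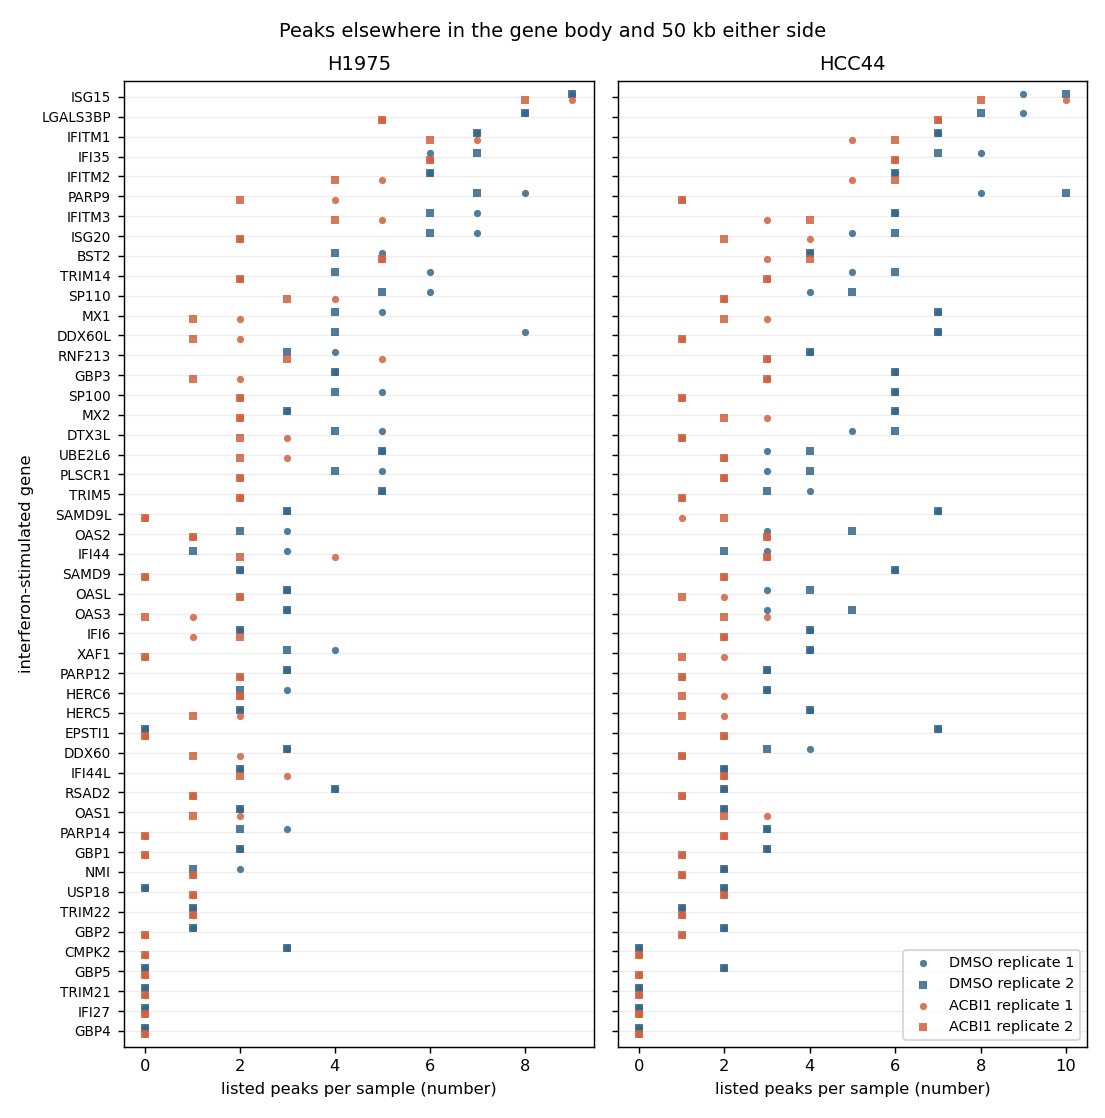
Number of listed peaks per sample in the gene body and 50 kb either side, away from the gene's own ends (horizontal axis), for each of the 48 ISGs (vertical axis), with DMSO in blue and ACBI1 in orange, circles for replicate 1 and squares for replicate 2. Orange points lie left of both blue points for 29 ISGs in H1975 and 34 in HCC44, while ISG15, IFI35 and IFITM1 keep most of their many peaks.

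The deepest losses lay around a small set of genes. SAMD9 and SAMD9L, next to each other, had 2, 2 and 3, 3 peaks elsewhere in the H1975 DMSO samples and 0 in both ACBI1 samples. Their windows overlap, so these are not separate losses. The joined stretch held 3 regions in both H1975 DMSO samples, all lost, and 1 of them was the SAMD9 start peak. In HCC44, SAMD9 went from 6 and 6 to 2 and 2, and SAMD9L from 7 and 7 to 1 and 2. DDX60L, a helicase gene, went from 8 and 4 peaks to 2 and 1 in H1975, and from 7 and 7 to 1 and 1 in HCC44, while its promoter stayed listed in all 8 samples. The groups did not overlap for any of these 3 genes in either line. With equal list lengths, however, the HCC44 ACBI1 mean was above the DMSO mean by 1.5 peaks for SAMD9 and by 0.5 for SAMD9L, and their H1975 groups overlapped. DDX60L had fewer peaks with ACBI1 in both lines under every setting tried.

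PARP9 and DTX3L share a promoter and encode partners of an ADP-ribosylation and ubiquitin ligase complex. PARP9 had 8 and 7 peaks elsewhere (DMSO) against 4 and 2 (ACBI1) in H1975, and 8 and 10 against 1 and 1 in HCC44. DTX3L, counted over a window that overlaps it, had 5 and 4 against 3 and 2, and 5 and 6 against 1 and 1. Their common promoter peak was listed in all 8 samples. PARP14, a nearby member of the same enzyme family, went from 3 and 2 peaks to 0 and 0 in H1975 and from 3 and 3 to 2 and 2 in HCC44. With equal list lengths PARP9 had fewer peaks with ACBI1 in both lines, while the PARP14 groups overlapped in H1975 and its HCC44 ACBI1 mean was 0.5 above the DMSO mean.

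XAF1, a pro-apoptotic partner of XIAP, had no boundary peak, and its surroundings went from 4 and 3 peaks to 0 and 0 in H1975 and from 4 and 4 to 2 and 1 in HCC44. All 3 regions listed around it in both HCC44 DMSO samples were lost, and the HCC44 ACBI1 peaks lay at places without a DMSO peak. GBP1 went from 2 and 2 to 0 and 0 and from 3 and 3 to 1 and 1. SP100 had 5 and 4 with DMSO against 2 and 2 with ACBI1 in H1975, and 6 and 6 against 1 and 1 in HCC44. MX1 had 5 and 4 against 2 and 1, and 7 and 7 against 3 and 2. In each of these 4 genes the lowest DMSO sample was above the highest ACBI1 sample in both lines. With equal list lengths this held for XAF1 and MX1 in H1975 and for SP100 in HCC44, and for GBP1 in neither line. Around CMPK2, chosen after its values were seen, 3 and 3 peaks in H1975 DMSO went to 0 and 0, and none was listed in HCC44.

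**Figure D3:**
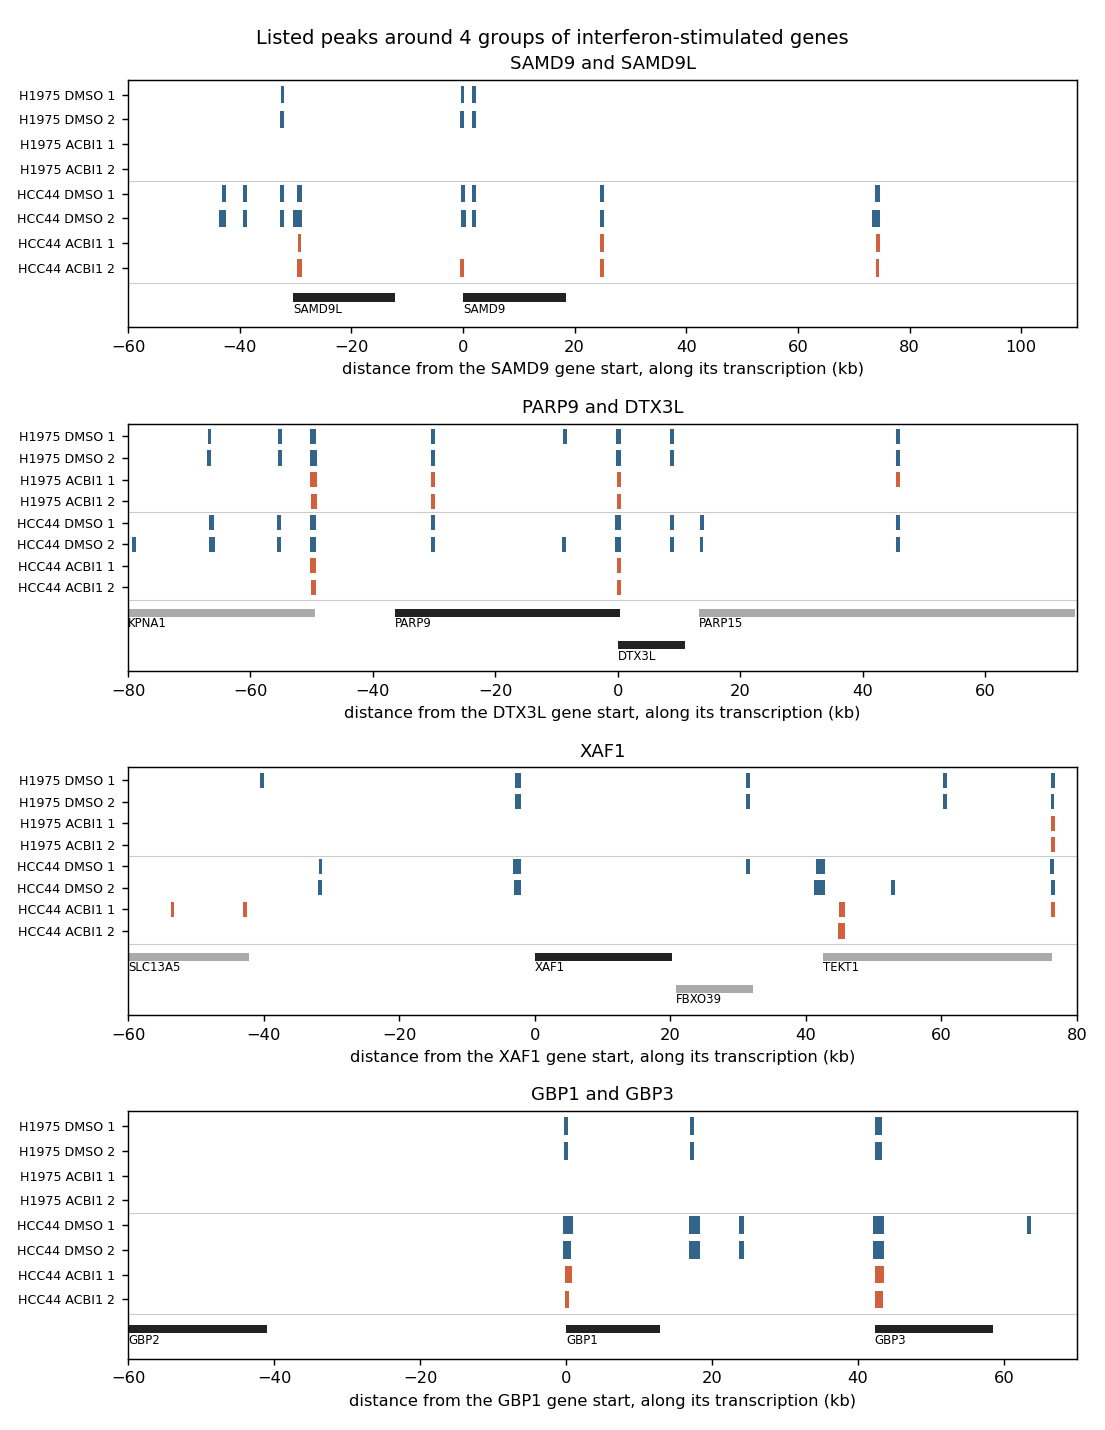
Listed peaks (bars) by sample (rows, DMSO in blue and ACBI1 in orange) around SAMD9 and SAMD9L, PARP9 and DTX3L, XAF1, and GBP1 and GBP3, against distance in kb from the named gene's start; ISGs are black and other coding genes grey. Around SAMD9 and GBP1 no peak was listed in the H1975 ACBI1 rows of the plotted stretch, while the shared PARP9 and DTX3L promoter peak at 0 was listed in all 8 samples.

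Other ISGs had as many peaks around them with ACBI1 as with DMSO, or had none to lose. IFI44 had 3 and 1 peaks elsewhere (DMSO) against 4 and 2 (ACBI1) in H1975, and 3 and 2 against 3 and 3 in HCC44. Its neighbour IFI44L had 2 and 2 against 3 and 2, and 2 and 2 against 2 and 2. The groups overlapped for both genes. USP18, which removes ISG15 from proteins and dampens receptor signalling, had 0 and 0 against 1 and 1 in H1975 and 2 in every HCC44 sample. TRIM22 had 1 in every sample, which was the start peak of its neighbour TRIM5, and TRIM21 and GBP4 had 0 in every sample.

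The genes of ISG15 conjugation kept their boundary peaks. ISG15, the ubiquitin-like modifier itself, had 9 and 9 peaks elsewhere (DMSO) against 9 and 8 (ACBI1) in H1975, and 9 and 10 against 10 and 8 in HCC44, so the groups overlapped. UBE2L6, its conjugating enzyme, had 5 and 5 against 3 and 2, and 3 and 4 against 2 and 2, though with equal list lengths its H1975 ACBI1 mean was 0.5 above the DMSO mean. HERC5, its ligase, had 2 and 2 against 2 and 1, which overlap, and 4 and 4 against 2 and 1, which do not. All of these, with HERC6 and USP18, had a boundary peak in all 8 samples.

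Against genes with the same number of DMSO peaks, more ISGs kept a smaller share of the peaks around them than the matched median than kept a larger one. The median percentiles depended on the setting. The kept share is the sum over both ACBI1 samples divided by the sum over both DMSO samples, and each ISG was ranked among all genes with the same DMSO sum, at least 288 genes each. It compares numbers of peaks, so a peak new with ACBI1 counts too. In H1975, 24 of 42 ISGs kept less than the matched median, 10 equalled it and 8 kept more. Their median kept share was 52.8%, beside 69.2% as the median of the matched medians, and their median percentile was 31.7. In HCC44, 22 of 44 kept less, 10 equalled the median and 12 kept more, with a median kept share of 50% beside 62.5% and a median percentile of 36.5. In the lowest 10% of matched genes lay 10 ISGs in H1975 and 6 in HCC44, and in the highest 10% lay 4 and 3. With a minimum fold enrichment of 5, the HCC44 median percentile was 53.1, with 18 of 44 under the matched median, and with equal list lengths the H1975 one was 44.4, with 13 of 37 under it. No p is given, since the members share windows and the list was chosen with results known.

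**Figure D4:**
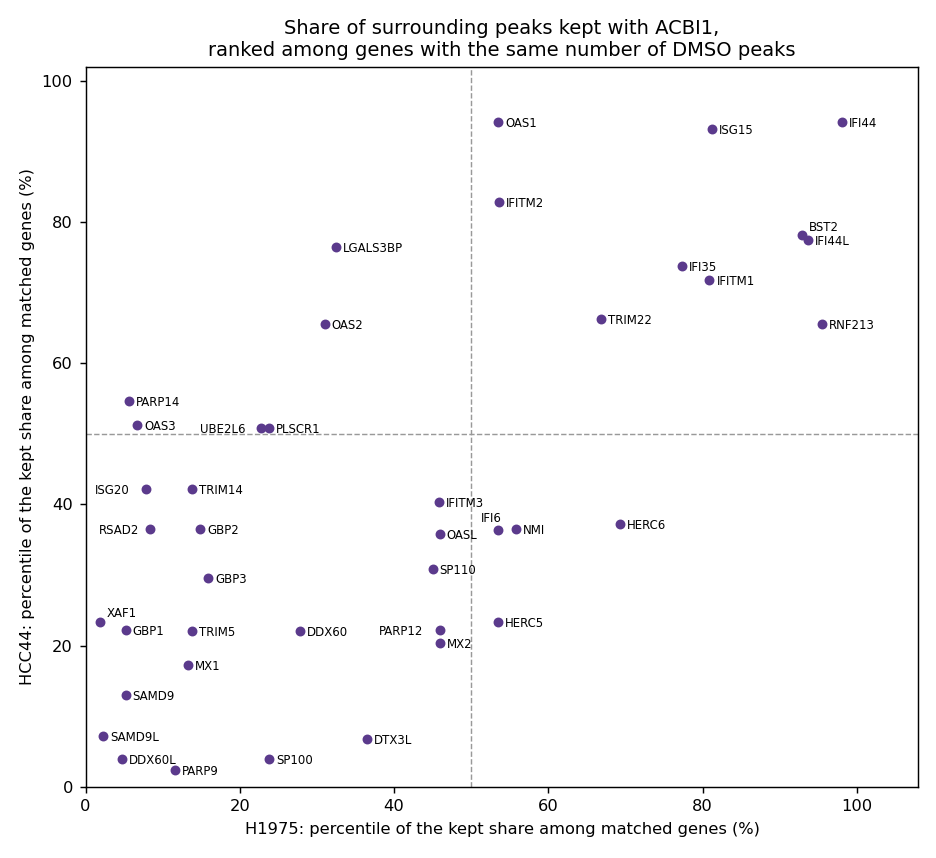
Percentile of each ISG's kept share of surrounding peaks among genes with the same number of DMSO peaks, in H1975 (horizontal axis, %) and HCC44 (vertical axis, %), for the 41 ISGs ranked in both lines; dashed lines mark 50. Of these, 21 lie under 50 in both lines, 10 over 50 in both and 10 are split.

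Across the 41 ISGs ranked in both lines, the lowest mean percentiles were those of DDX60L (4.36), SAMD9L (4.75), PARP9 (6.95), SAMD9 (9.10), XAF1 (12.6), GBP1 (13.7), SP100 (13.9) and MX1 (15.3). IFI44 (96.1) and IFI44L (85.6) were near the other end. OAS1, which lost its promoter peak in both lines, had 2 and 2 peaks elsewhere with DMSO against 2 and 1 with ACBI1 in H1975. In HCC44 it had 2 and 2 against 3 and 2. The DMSO peaks counted there were the boundary peaks of its neighbours OAS3 and OAS2, so they do not describe chromatin outside promoters. DDX60L had a promoter peak in all 8 samples and few peaks left around it.

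Merged into regions, the ISG surroundings lost about the same share as the genome. Peaks of a line's 4 samples that overlapped were joined into a region, and a region was called lost when both DMSO samples and neither ACBI1 sample had a peak in it. In H1975, 55 of 148 ISG regions were lost (37.2%), as were 37.2% of all regions, and in HCC44 82 of 181 (45.3%), beside 49.2%. At gene boundaries the lost share was 15.9% in H1975 (10 of 63), beside 4.23%, and 8.57% in HCC44 (6 of 70), beside 8.73%. Outside all boundaries it was 52.9% in H1975 (45 of 85), beside 50.2%, and 68.5% in HCC44 (76 of 111), beside 63.0%. Of the 32 stretches, 23 held a lost region in both lines and 3 in neither.

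**Figure D5:**
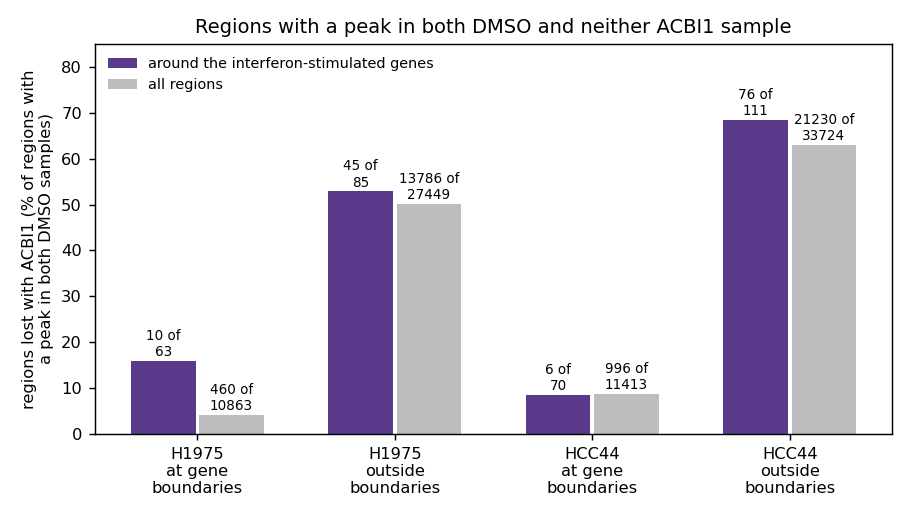
Share of regions listed in both DMSO samples that were lost (vertical axis, %), at gene boundaries and outside them in each line, around the ISGs (purple) and over all regions (grey), with the numbers of regions above the bars. Only the H1975 boundary bars are far apart, at 15.9% and 4.23%.

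The 2 lines lost many of the same regions. Of 123 ISG regions that every one of the 4 DMSO samples listed, 28 were lost in both lines (22.8%, beside 25.1% of all regions) and 64 were retained in all samples (52.0%, beside 51.8%). Only 2 of the 28 lay at a gene boundary. The strongest of them lay 2047 bp from XAF1, at chr17:6752243-6753400, with -log10 q of 79.7 and 70.5 in H1975 DMSO and 74.0 and 64.7 in HCC44 DMSO. The next was 28807 bp from MX1, inside TMPRSS2, at chr21:41488021-41488573, with 59.3 and 43.3, and 62.3 and 54.9. Another, inside KPNA1 and 29416 bp from PARP9, lay at chr3:122497510-122498508 with 64.5 and 78.2, and 32.9 and 40.3. Others lay within TRIM14, an adaptor in antiviral signalling, at chr9:98081385-98081757, and within MX2 at chr21:41366705-41367167. All were listed in the 4 DMSO samples and in none of the 4 ACBI1 samples.

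Some regions were lost in only 1 line. A region within PARP9 at chr3:122533938-122534432 had -log10 q of 77.9 and 87.9 (DMSO) against 37.3 and 28.5 (ACBI1) in H1975, and 56.7 and 48.0 against none in HCC44. One within SP100 at chr2:230520570-230521227 had 81.1 and 73.5 against 46.7 and 24.8 in H1975, and 55.7 and 57.7 against none in HCC44. A region 1824 bp from PARP14 at chr3:122732664-122733419 was lost in H1975 (17.5 and 12.2 with DMSO) and retained in HCC44 (66.2 and 59.6 against 29.2 and 35.9). Regions with a peak in both ACBI1 samples and no DMSO peak, called gained, numbered 8 of 187 around the ISGs in H1975 (4.28%), beside 1.35% of all regions, and 9 of 222 in HCC44 (4.05%), beside 2.28%. Both shares were above those over all regions, a difference that was not tested. The region at chr1:78617635-78617997, 2451 bp from IFI44L, was gained in both lines, with 18.7 and 18.8 in H1975 ACBI1 and 26.7 and 27.9 in HCC44 ACBI1 and no peak in any DMSO sample.

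Most genes of the interferon signalling machinery kept their boundary peaks, as most genes did. A separate list held 33 genes: receptors and kinases, transcription factors, negative regulators, and induced genes outside the ISG list. Boundary peaks were present in both DMSO samples at 29 of them in each line. In H1975, 25 kept them in both ACBI1 samples, 2 in 1 and 2 in neither, a lower kept share than the 95.2% of all genes. In HCC44, 28 kept them and 1 did not in either sample, where 91.9% of all genes kept them. All 9 receptor and kinase genes had one with DMSO, and 8 kept it in H1975 and 9 in HCC44; the exception was IFNLR1, the lambda interferon receptor chain, with a peak in 1 H1975 ACBI1 sample. STAT2, IRF1, IRF2, IRF3 and IRF9 kept theirs in all 8 samples, as did the 4 negative regulators SOCS1, SOCS3, PTPN1 and PIAS1. IRF7, TAP1 and PSMB9 were not analysed, as the lists used here held no peak around them. The other boundary losses were at induced genes: IFIT2 in both lines, APOL1 in both H1975 ACBI1 samples and IFIT3 in 1 of them.

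Around the pathway genes, 17 of 29 had fewer peaks elsewhere in both H1975 ACBI1 samples, near the 52.6% of all genes, and 24 of 29 in HCC44, where 65.3% of all genes did, and 0 had more. IFIT3, an RNA-binding partner of IFIT1, went from 5 and 5 peaks to 0 and 0 in H1975 and from 5 and 4 to 1 and 0 in HCC44. IFNGR1, the ligand-binding chain of the gamma interferon receptor, went from 1 and 1 to 0 and 0 and from 5 and 5 to 0 and 0. IRF1, which binds ISREs, went from 5 and 3 to 2 and 2 and from 8 and 8 to 2 and 2, and SOCS3, an inhibitor of JAK signalling, from 10 and 10 to 5 and 4 and from 12 and 12 to 6 and 6. IRF9 had 8 in every H1975 sample, and 8 and 8 against 9 and 8 in HCC44. These genes were picked from the list after their values were seen, to show its range.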

How the data were processed

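ATAC-seq peak lists of 8 samples were used, 1 per sample, so the authors called peaks per sample and not on pooled replicates. Alignment with BWA to hg38 is named in the submitters' processing notes; the peak caller, its settings and the read filters are not given in the sources used here. Libraries had 11 PCR cycles, per the labels' protocols. Each deposited list has 9 columns without a header. The fold enrichment of a peak is the authors' own ratio over background, and its q-value was deposited as a -log10 value. The lowest -log10 q in a list was 10.0 to 10.2. Depth in reads is unknown, so no counting interval was computed.

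Gene positions and strands came from RefSeq tables of GRCh38.p14. An overlap of 1 bp counted. Regions were merged within a line. Genes named with all values were those with a boundary peak lost or gained in a line, the 8 lowest mean percentiles against matched genes, a kept share of at most 25% in both lines with groups that did not overlap, more peaks or equal or higher sums with ACBI1, or no peak; other names are examples. Named regions were taken from the 8 strongest lost in both lines and from up to 5 gained per line, and those lost in 1 line are examples. The members, lists and rules were chosen with earlier results of these data known. Alternatives were boundary windows of 500 bp and 5 kb, surroundings of 20 and 100 kb, a minimum -log10 q of 20, a minimum fold enrichment of 5, joining peaks closer than 1200 bp, merging within 1 kb, equal list lengths, a replicate block and the omission of 1 sample at a time. The ranges of peak strength, of CpG content and the gene start alone were added after seeing the data. numpy 2.4.6 and pandas 2.3.3 were run in Python 3.11.15, matplotlib 3.10.9 drew the figures, and the functions were tested on simulated data.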

Additional observations from a re-analysis of the deposited data

How the results depend on the processing

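Equal list lengths, 22133 peaks each by -log10 q, had the largest effect. ISGs with fewer peaks elsewhere numbered 8 of 31 in H1975, beside 17.0% of genes, and 8 of 37 in HCC44, beside 20.3%. The log2 change of peaks elsewhere was 0.10 in H1975, a change of sign, and -0.09 in HCC44. Boundary peaks were lost at 0 of 21 ISGs in H1975, beside 0.771% of genes, and kept at 22 of 24 in HCC44, beside 97.8%. Lost regions numbered 14 of 70 in H1975, beside 21.2% of all regions, and 22 of 77 in HCC44, beside 35.9%. In H1975, 13 of 37 ISGs kept less than the matched median. This setting removes the fall in list length itself. In HCC44 a boundary peak was lost at 4 of 47 ISGs with 5 kb windows, beside 6.28% of genes. With a minimum -log10 q of 20 this was 9 of 36, beside 7.13%. With a minimum fold enrichment of 5 it was 4 of 22, beside 18.3%, and 13 of the 22 kept theirs, beside 64.9%. It was 1 of 8 in the lowest 40% by strength, beside 25.6%. At a CpG ratio of at most 0.3 it was 1 of 10, beside 27.7%, and 4 of 8 in H1975, beside 16.3%. These ranges hold fewer genes. The HCC44 log2 change was -0.93 with 5 kb boundary windows, -1.21 and -0.79 with surroundings of 20 and 100 kb, -1.36 with the minimum -log10 q and -1.83 with the minimum fold enrichment; the cause was not tested. Of 118 such values for 12 results, 97 stayed within 1.5 times the count or 1 SD. Some of these could not move. The replicate block enters only the count of ISGs with fewer peaks elsewhere, and the boundary window does not enter the region counts.

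Leaving out 1 sample at a time gave 7 to 11 ISGs with a lost boundary peak in H1975, beside 2.63% to 4.65% of genes. In HCC44 it gave 2 to 4, beside 6.41% to 7.0%. The 11 came without ACBI1 replicate 1 and the 4 without ACBI1 replicate 2. Kept boundary peaks numbered 26 to 30 (94.1% to 97.4% of genes) and 35 to 37 (90.8% to 93.4%). ISGs with fewer peaks elsewhere numbered 30 to 33 (54.6% to 68.4% of genes) and 34 to 36 (68.8% to 72.1%). These counts and those of lost boundary peaks could only stay or rise with 1 sample fewer, so they do not test the calls. ISGs under the matched median numbered 22 to 25 and 20 to 27. Lost regions numbered 55 to 75 (37.8% to 47.4% of all regions) and 84 to 92 (51.4% to 53.3%). The log2 change was -0.96 to -0.69 in H1975 and -1.11 to -0.95 in HCC44.

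With replicate numbers as a replicate block, 29 ISGs in H1975 and 34 in HCC44 had fewer peaks elsewhere, as without the pairing. These counts could not fall, because groups that do not overlap also differ within each pair. Over all genes the shares were 56.9% and 67.6%. Deviations of same-numbered samples correlated at 0.11 and 0.04 over 20037 genes, and the labels do not say that a number pairs samples.

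For single ISGs, 63 calls of fewer peaks were recomputed under the other settings, giving 567 values, of which 474 were still called, 69 were not and 24 were higher with ACBI1 on average. The replicate block, 1 of these settings, could not undo a call. With equal list lengths the H1975 ACBI1 mean was above the DMSO mean by 0.5 peaks for OAS2, IFITM3 and UBE2L6, 1.0 for OASL and PARP12, 1.5 for TRIM5, 2.0 for IFITM2 and 3.0 for LGALS3BP. In HCC44 it was above by 0.5 for OASL, SAMD9L, PARP14, GBP2, EPSTI1 and TRIM14, 1.0 for ISG20, TRIM5, GBP3, PLSCR1 and LGALS3BP, and 1.5 for SAMD9. With the minimum fold enrichment it was above in HCC44 by 1.0 for ISG20 and 0.5 for TRIM5 and LGALS3BP, and with surroundings of 100 kb by 1.0 for IFITM1. All 252 values that left out 1 sample were still called. This had to be so, since omitting a sample cannot make separate groups overlap, so it does not test the calls.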

Other observations

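The listed IFITM2 peak began at the same base, chr11:308065, in all 4 DMSO samples and ended at 4 different positions. The BST2 start peak began at chr19:17405257 in 3 of the 4 H1975 samples. Both genes have a peak whose edge is shared to the base between separately called lists, which was seen after the values had been examined.

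LGALS3BP, a secreted glycoprotein gene, had its start peak and, besides it, a peak towards its 3′ end within chr17:78971392-78972082 in 1 H1975 ACBI1 sample and both HCC44 ACBI1 samples, and in no DMSO sample. A 3′ peak of this kind, listed only with ACBI1, was also present at BST2.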
